A study of Mus musculus with 12 samples.

Results

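The nuclear transcriptome of spinal cord microglia without an injury was described from 3 libraries of sham-operated C57BL/6 mice. They are the libraries whose column names start with Sham, and they carry the replicate numbers 2, 3 and 4. They are 3 of the 12 libraries of a study of spinal cord injury in which the other groups were injured, and no value below uses an injured group. Each library pools cord tissue of 3 animals and carries a day label of 7. Nuclei were released from the tissue, and an antibody on magnetic beads captured those that held GFP, the green fluorescent protein. The labels call them microglial nuclei. The sources used here do not give the transgene behind the GFP, its promoter, or the age and sex of the animals. Isothermal amplification from a single primer preceded library making. The labels name polyA RNA as the molecule, while the protocol starts from total RNA.

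Microglia are the resident macrophages of the brain and spinal cord. They depend on the growth factor receptor CSF1R and on transforming growth factor beta (TGF-beta), and in the unharmed cord they survey the tissue with fine processes that follow purine signals. RNA of a nucleus is richer in newly made, partly spliced and nucleus-retained transcripts than RNA of a whole cell, whereas stable messengers such as those of ribosomal proteins gather in the cytoplasm.

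Level is given on 2 scales. The share of counts is a gene's count as a percentage of its library's total, which grows with gene length. RPKM is that share divided by gene length, so genes are compared with each other in RPKM only. Values per library stand in the order of replicates 2, 3 and 4, and means are given ± SD (n = 3). There is a single group, so no test was made, and the spread between the libraries is the spread between pools and their preparation. In such bulk RNA, fewer nuclei of a type and less RNA per nucleus cannot be told apart.

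Total counts were 7064757, 4069787 and 4003480. The libraries differed in ways that no label gives. Counts of the Y-linked genes Kdm5d, Uty, Ddx3y and Eif2s3y were 1, 2, 2 and 0 in replicate 2, against 515, 243, 275 and 488 in replicate 3 and 486, 271, 206 and 272 in replicate 4, while Xist, which is made from an inactive X chromosome, had counts in all 3. Replicate 4 held more counts of astrocyte, vascular and fibroblast markers than the other libraries, and short genes were lower in it. The values stand beside the results they touch, and their part in those results was not tested.

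Of 49585 annotated rows, 28802 had a count in at least 1 library and 20876 had counts in all 3. A mean of at least 1 RPKM was reached by 17855 rows, at least 10 RPKM by 5695 and at least 100 RPKM by 189. The counts were spread over many genes. The number of genes that together held 50% of a library's counts was 929, 1178 and 953, and the 100 leading genes of a library held 19.9%, 15.5% and 17.9% of its counts (17.8 ± 2.18%).

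Protein-coding genes took 87.8 ± 0.977% of counts, and 12063 of 21973 such rows (54.9%) reached 1 RPKM. Long intergenic noncoding RNAs (lincRNAs) took 4.90 ± 1.16%, and TEC rows, an annotation class for candidate transcripts that await experimental evidence, took 3.43 ± 0.587%. Antisense RNAs held 1.14 ± 0.169%, processed transcripts 0.960 ± 0.0962%, processed pseudogenes 0.723 ± 0.0441% and sense intronic RNAs 0.307 ± 0.0654%. Long noncoding RNA of all kinds other than TEC came to 8.38%, 6.42% and 7.27% of counts, with exact 95% binomial intervals of 8.36 to 8.40, 6.40 to 6.44 and 7.24 to 7.29. These intervals cover counting error only and do not measure the spread between pools. Without Malat1 and Xist the same class held 3.60%, 3.80% and 4.09%, so that these genes carried much of its total and of its spread. Rows of the type rRNA held 0.0107 ± 0.00301%, and ribosomal RNA counted in rows of other types was not assessed. The 37 rows of the mitochondrial genome held 0 counts in every library, which allows a share of up to 4.25e-05%, 7.37e-05% and 7.49e-05%. Genes that every cell uses are among these rows, so mitochondrial transcripts are listed at 0 and were not assessed.

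The gene with the most counts was Malat1, a lincRNA that stays in nuclear speckles (chr19:5795690-5802672, minus strand, GRCm38). It held 3.11%, 2.23% and 2.45% of counts, or 4452, 3196 and 3505 RPKM. Xist, the RNA that coats the inactive X chromosome (chrX:103460366-103483254, minus strand), held 1.67%, 0.388% and 0.734% of counts. Xist was thus highest in the library with almost no Y-linked counts, and its mean of 519 ± 371 RPKM became 313 RPKM without that library. The other 18 of the 20 genes with the largest shares were protein-coding, and the median length of the 20 was 13478.5 bases. The share grows with length, and how far length alone set this order was not tested. Macf1, which links microtubules to actin, held 0.611 ± 0.188% and Dst, another giant linker of the cytoskeleton, 0.337 ± 0.0797%. Srrm2, a scaffold of nuclear speckles, held 0.370%, 0.413% and 0.508%. Dock10, an exchange factor for small GTPases, held 0.299 ± 0.0251%, Ssh2, which activates the actin-severing protein cofilin, 0.235 ± 0.00745%, and Srgap2, a regulator of membrane protrusions, 0.207 ± 0.0172%. The last 3 named had like shares in every library.

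**Figure D1:**
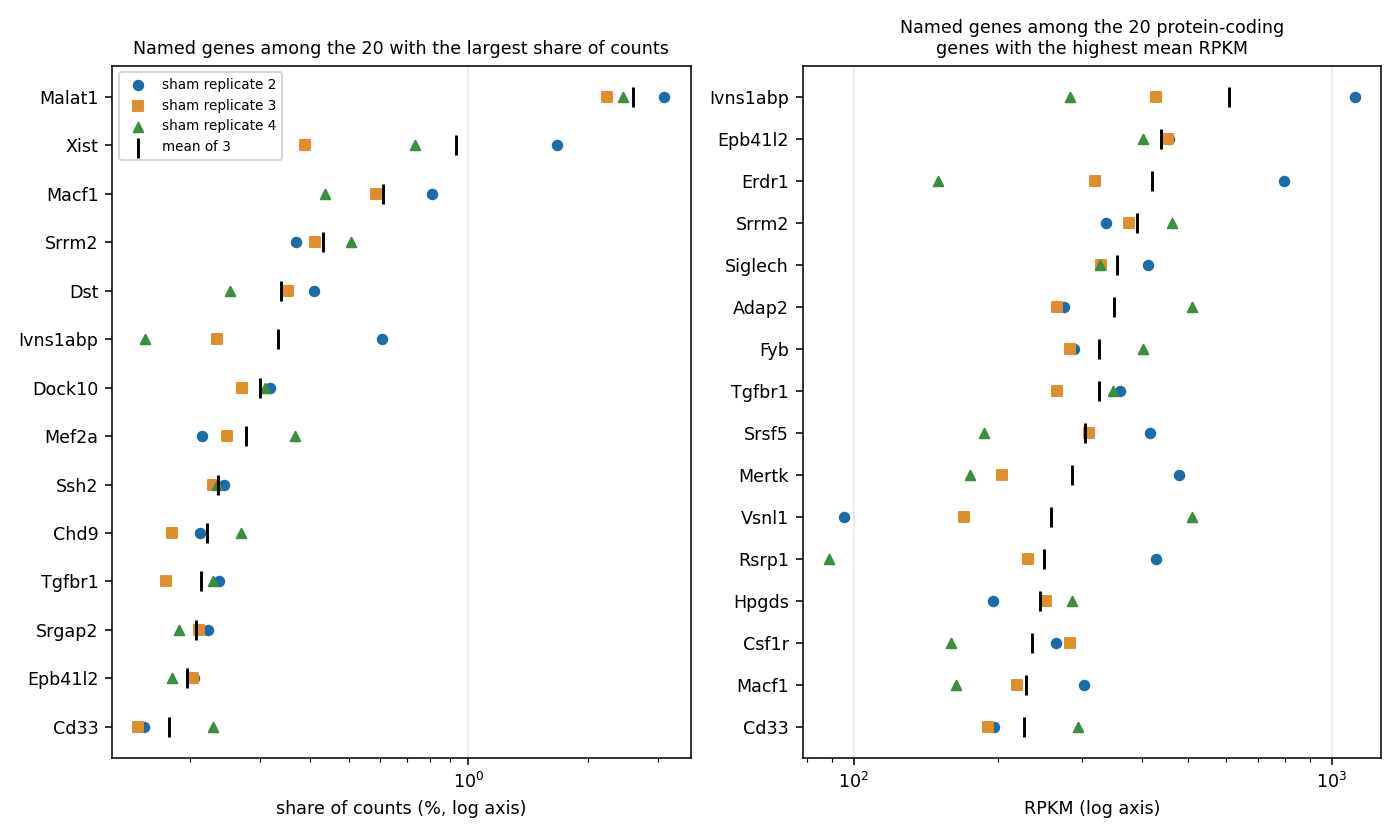
Genes with the most counts and with the highest level per length in the 3 sham libraries. The left panel plots the share of counts (%, log axis) of genes named in the text among the 20 with the largest mean share and the right panel the RPKM (log axis) of those named among the 20 protein-coding genes with the highest mean RPKM, with a symbol for each library and a bar at their mean. Ivns1abp stands at 1118 RPKM in replicate 2 and at 429 and 284 in the others, while Epb41l2 lies between 404 and 457 in all 3.

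Per length, the leading protein-coding genes were a mixture of genes with microglial roles, genes with other roles and some that were high in a single library. Epb41l2, which ties the membrane to the cytoskeleton, stood at 457, 455 and 404 RPKM, and Siglech, a sialic acid receptor that marks microglia, at 412, 329 and 327. The level of each of these genes was alike in the libraries. Tgfbr1, the signalling receptor for TGF-beta, had 360, 266 and 349 RPKM, and Fyb, an adaptor of immune cell adhesion, 289, 284 and 404. Adap2, a GTPase-activating protein, reached 511 RPKM in replicate 4 against 276 and 266, and Vsnl1, a calcium sensor known from neurons, 510 RPKM against 95.2 and 170. Fyb, Adap2 and Vsnl1 were highest in replicate 4, the library with the most astrocyte and vascular marker counts. The part of other cells in this was not tested.

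Other leading genes were highest in replicate 2. Ivns1abp, an actin-binding protein, stood at 1118, 429 and 284 RPKM (356 without replicate 2), and Erdr1 at 793, 319 and 150 RPKM (234 without it). Mertk, a receptor for the uptake of dying cells, had 480, 204 and 175 RPKM. The splicing factor Srsf5 followed with 418, 311 and 187 RPKM, and Rsrp1, an arginine- and serine-rich protein, with 430, 231 and 88.8. In 7 of the 20 protein-coding genes with the highest RPKM, the highest library was at least 2 times the lowest, against 3 of the 20 with the largest shares.

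Of the 123 protein-coding genes of at least 100 RPKM, 91 had a RefSeq promoter, and these were searched for the letters GAGGAAGT, on both strands. This is a binding word of PU.1, the ETS factor that macrophages and microglia need, whose own gene Spi1 stood at 19.9, 38.0 and 36.4 RPKM. A promoter here is the stretch from 250 bases before to 50 bases after a start (build GRCm38.p6). The word was found in 19 of the 128 promoters of these genes (14.8%), and in 3.13% of all 19768 promoters of protein-coding genes. Among genes below 0.1 RPKM it was found in 3.69%, from 0.1 to 1 RPKM in 2.81%, from 1 to 10 RPKM in 2.51% and from 10 to 100 RPKM in 3.48%. Some genes have it in more than 1 promoter. In Selenop and Cttnbp2nl these promoters overlap, so the same bases were counted more than once among the 19. Counted by gene, which removes such repeats, 16 of the 91 (17.6%) and 3.63% of all 16205 genes with a promoter held it. These shares are a description, and no difference between classes was tested. A match says only that these letters lie in the window.

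Windows of 80 bases before the start are shown for 6 of these genes, each written 5′ to 3′ on the strand of its gene, with the word (or its reverse complement) in capitals. They are the 6 with the highest RPKM among those in which the word lies wholly before the start. Hpgds makes prostaglandin D2 and Ptgs1 (COX-1) the precursor of it. Rasgrp3 activates Ras in immune cells, Vav1 activates GTPases of the cytoskeleton, Ddx5 is an RNA helicase, and Selenop carries selenium. The windows are chr6:65144736-65144815 (minus) for Hpgds, chr17:75435819-75435898 (plus) for Rasgrp3, chr11:106788931-106789010 (minus) for Ddx5, chr2:36230346-36230425 (plus) for Ptgs1, chr15:3270550-3270629 (plus) for Selenop and chr17:57279020-57279099 (plus) for Vav1.
Hpgds: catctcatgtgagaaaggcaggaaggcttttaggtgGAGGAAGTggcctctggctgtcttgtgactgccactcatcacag
Rasgrp3: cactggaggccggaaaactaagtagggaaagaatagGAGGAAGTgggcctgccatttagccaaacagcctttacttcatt
Ddx5: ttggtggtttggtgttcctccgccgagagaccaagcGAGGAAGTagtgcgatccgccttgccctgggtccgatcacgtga
Ptgs1: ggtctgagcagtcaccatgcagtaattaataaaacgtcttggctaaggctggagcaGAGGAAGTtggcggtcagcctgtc
Selenop: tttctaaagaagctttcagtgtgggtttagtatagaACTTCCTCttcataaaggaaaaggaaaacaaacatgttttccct
Vav1: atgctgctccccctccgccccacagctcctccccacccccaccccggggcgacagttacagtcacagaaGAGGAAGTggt
The word begins 49 bases before the start in Hpgds, 50 in Rasgrp3, 67 in Ddx5, 24 in Ptgs1 and 11 in Vav1. In Selenop its reverse complement begins 181 bases before the start. Hpgds stood at 196, 253 and 286 RPKM, and Vav1 at 105, 124 and 119.

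Base composition of promoters also varied with the level. The median ratio of observed to expected CpG was 0.185 below 0.1 RPKM, 0.461 from 0.1 to 1, 0.723 from 1 to 10 and 0.781 from 10 to 100 RPKM, and 0.634 at 100 RPKM or more. The letters TATAAA were in 26.1% of promoters below 0.1 RPKM, 6.58% of those from 10 to 100 RPKM and 12.5% of those at 100 RPKM or more. The top class thus lay between silent and mid-level genes in both. Of 58 genes on the microglial lists below, 42 had a promoter entry. Their median CpG ratio was 0.434, and 4 of these 42 genes (9.52%) held the PU.1 word, against 3.63% of all 16205 genes.

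Microglial genes were described in 3 lists, which together hold 59 rows. The lists were chosen with earlier results of these data known, so their levels are no independent check of the label of these nuclei. All 59 had a mean of at least 1 RPKM, 53 of at least 10 and 18 of at least 100. Their median was 61.1, 62.6 and 51.1 RPKM, against 6.34, 7.14 and 5.63 for the 12063 protein-coding genes of at least 1 RPKM. Together they held 2.52%, 2.46% and 2.63% of counts (2.54 ± 0.0866%). Among surface proteins, Csf1r, the survival receptor, stood at 265, 283 and 160 RPKM. P2ry12, the ADP receptor that guides microglial processes, stood at 243, 139 and 224, and Cd33, an inhibitory sialic acid receptor, at 197, 191 and 294. Every library thus held high levels of these 3 receptors, with no single order of libraries across them. Tmem119 had 53.6, 108 and 66.4 RPKM, Cx3cr1, the fractalkine receptor, 64.2, 63.9 and 49.8, and Gpr34, a lysophospholipid receptor, 81.2, 35.3 and 58.2. The lowest members were Gpr183 (mean 21.5 RPKM), Adgrg1 (16.9) and a second Itgam ID (1.00), whose exon bases another ID shares.

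Secreted and lysosomal proteins of microglia had a median of 102, 82.1 and 50.6 RPKM over 16 rows. C1qb, a chain of the complement starter C1q, stood at 257, 212 and 160 RPKM, and C1qc at 72.3, 82.8 and 45.8. The third chain, C1qa, was far lower at 10.6, 19.4 and 1.68. Its gene is the partner of the others in 1 protein complex, so nuclear levels of the chains were unequal. Ctss, a lysosomal protease, had 193, 163 and 109 RPKM, Lgmn, another protease, 171, 174 and 213, and Sparc, a matrix protein, 109, 87.5 and 137.

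Transcription factors had a median of 35.4, 39.1 and 36.9 RPKM, and 17 of 20 reached 10 RPKM. Mef2a led with 146, 169 and 250 RPKM. Sall1, a repressor that sets microglia apart from other macrophages, stood at 116, 121 and 93.2. Ikzf1 had 86.6, 92.6 and 104 RPKM and Runx1 40.2, 48.5 and 66.1. The highest library was replicate 4 for Mef2a, Ikzf1 and Runx1 and replicate 3 for Sall1. Irf8, which microglia need to mature, had 25.8, 36.5 and 15.3 RPKM. The lowest were Cebpa (6.82, 1.86 and 1.33), Tfec (1.32, 0.835 and 2.28) and Cebpb (3.39, 0.163 and 0.332), of which Cebpb is a factor of inflammatory macrophages.

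**Figure D2:**
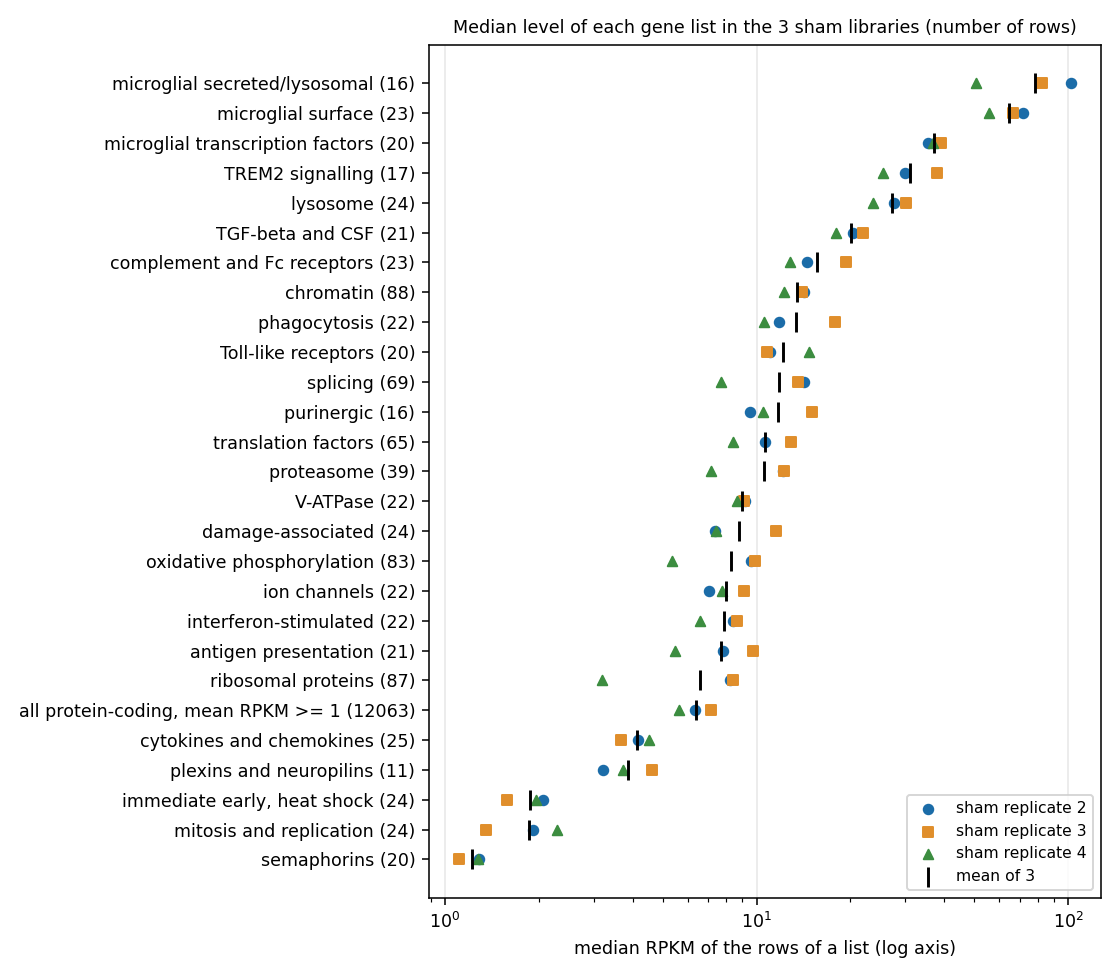
Median RPKM of each gene list (log axis) in the 3 sham libraries, with the number of rows in brackets and a bar at the mean of the libraries. The 3 microglial lists lie between 35.4 and 102 RPKM, ribosomal proteins at 8.18, 8.41 and 3.18, and semaphorins between 1.11 and 1.28.

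Pathways that keep or activate microglia were present at graded levels. Of 21 genes for TGF-beta and colony-stimulating factors, 19 reached 1 RPKM. Beside Tgfbr1 and Csf1r stood Csf3r (154, 208 and 177 RPKM), the receptor for the granulocyte factor, and Csf2ra, the alpha chain for the granulocyte-macrophage factor, with 77.9, 45.0 and 198. The ligands were low. Csf1 had 3.54, 7.86 and 10.6 RPKM and Il34, the other ligand of CSF1R, 0.578, 0.376 and 0.255. Tgfb1 stood at 15.2, 15.0 and 9.56 RPKM and Nrros, which holds latent TGF-beta at the microglial surface, at 44.1, 42.4 and 26.5. The receptors for both factors were thus higher per length than their ligands in every library.

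Of 17 genes of TREM2 signalling, 16 reached 1 RPKM. The lipid receptor Trem2 stood at 55.6, 73.0 and 23.1 RPKM and its signalling partner Tyrobp at 198, 87.3 and 30.7. Both were lowest in replicate 4, in which short genes were low. Downstream, the lipid phosphatase Inpp5d had 88.1, 104 and 72.9 RPKM, Lyn, a Src kinase, 85.1, 124 and 130, Syk, the kinase that Tyrobp recruits, 29.8, 29.9 and 21.6, and Plcg2, a phospholipase, 62.3, 54.4 and 23.4. Abi3, at 55.0, 84.5 and 128 RPKM, shares 70.1% of its exon bases with Zfp652 on the other strand.

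Complement and Fc receptor genes reached 1 RPKM in 19 of 23 rows. Fcer1g, the shared signalling chain of Fc receptors, had 109, 154 and 97.7 RPKM. Itgb2, a chain of complement receptor 3, had 59.7, 91.1 and 75.9. The central component C3 was low at 0.991, 3.49 and 9.18 RPKM, and Vsig4, a complement receptor of other tissue macrophages, was at 0.382, 0.166 and 0.168. All 20 genes on the list of Toll-like receptors and genes that work with them reached 1 RPKM. The receptors inside endosomes and their escort were highest, with Unc93b1 at 105, 160 and 117 RPKM and Tlr7, which senses single-stranded RNA, at 94.1, 77.7 and 189. Tlr4, the receptor for lipopolysaccharide, had 12, 13.4 and 20.5 RPKM.

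Of 16 purinergic genes, 11 reached 1 RPKM. After P2ry12 came P2ry13 (89.0, 89.5 and 162 RPKM) and the ATP-gated channel P2rx7 (61.7, 78.2 and 105). Entpd1 (CD39), which breaks down ATP, had 71.5, 62.1 and 62.7 RPKM, whereas Nt5e (CD73), which makes adenosine from AMP, had 0.724, 0.800 and 0.377. The first and the later step of that route thus differed widely in level. Among uptake genes, Elmo1 (102, 104 and 113 RPKM) and Dock2 (72.8, 74.1 and 70.5), which together activate Rac, varied little, while the bridging protein Mfge8 stood at 0.121, 0.471 and 0.798. All 24 lysosomal genes reached 1 RPKM, with a median of 27.6, 30.2 and 23.6. Psap, which supplies the saposins, had 107, 80.8 and 39.5 RPKM, and Lamp1, a membrane protein of lysosomes, 33.9, 34.0 and 34.1.

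Genes known from activated or disease-associated microglia were uneven. Of 24, 22 reached 1 RPKM, 11 reached 10, and the median was 7.34, 11.5 and 7.43 RPKM. Lilrb4a, an inhibitory receptor, led with 121, 159 and 182 RPKM, although 92.8% of its exon bases are shared with another ID of the same name. Cd68, a lysosomal membrane protein, had 44.1, 67.8 and 89.0 RPKM, Axl, a receptor for dying cells, 10.5, 26.3 and 25.4, and Apoe, a lipid carrier, 16.8, 22.0 and 16.6. Several other genes used to mark the state were lower. Spp1 (osteopontin) stood at 3.18, 8.65 and 7.12 RPKM, Clec7a (dectin-1) at 5.85, 2.70 and 5.49 and Itgax (CD11c) at 5.19, 5.06 and 2.55. Lpl, a lipase, had 1.12, 2.27 and 1.69 RPKM, and Gpnmb, a membrane glycoprotein, 0.196, 0.377 and 0.268. Axl and Apoe, which also mark the state, thus lay above Spp1, Clec7a, Itgax, Lpl and Gpnmb in every library.

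Of 25 cytokine and chemokine genes, 17 reached 1 RPKM, and Il10, Il12b and Cxcl1 had no count. Il1a (46.8, 60.5 and 89.0 RPKM) and Il18 (49.0, 54.8 and 39.0) were the highest. Il1b, the other interleukin-1, had 4.16, 6.06 and 4.85 RPKM, Il6 6.00, 4.35 and 4.53, and Tnf 1.38, 2.40 and 0.914. Interleukins 1 alpha and 18 thus stood above the rest of the list in each library.

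Immediate early genes, which dissociation of live cells can switch on, were listed together with heat shock genes. Of these 24 genes, 16 reached 1 RPKM and 5 reached 10, and the median was 2.06, 1.58 and 1.96 RPKM. Fos stood at 0.722, 0.104 and 0.743 RPKM, Fosb at 0, 0.0394 and 0.0800, Jun at 3.73, 4.08 and 2.74, Egr1 at 4.96, 4.00 and 4.96 and Hspa1a, a heat-inducible chaperone, at 0.143, 0.0828 and 0.0842. Hspa8, the constitutive chaperone, was the highest of the list with 83.7, 82.2 and 62.1. Among 24 genes of mitosis and DNA replication, 16 reached 1 RPKM and Mki67 alone reached 10 (15.3, 6.20 and 20.9). Its partner markers were lower, with Top2a at 3.83, 2.07 and 4.30 RPKM and Cdk1 at 0.370, 0.642 and 0.0725.

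Interferon-stimulated genes had a median of 8.37, 8.63 and 6.59 RPKM over 22 rows. Trim30a led with 72.2, 65.1 and 82.2 RPKM and the transcription factor Stat2 had 23.6, 41.4 and 31.2. Isg15, a small modifier that interferon induces strongly, stood at 0.187, 0.975 and 0.991 RPKM and Rsad2 (viperin) at 0.589, 0.568 and 0.404. Members of a single regulated group thus spanned from below 1 to above 70 RPKM. Of 15 of these genes with a promoter entry, 10 held the letters GAAA, any 2 bases and GAAA again, the core of the interferon regulatory factor motif, on either strand. The share of promoters was 64.7%, against 3.38% of all promoters. Antigen presentation reached 1 RPKM in all 21 rows. B2m, the light chain of class I molecules, had 115, 127 and 250 RPKM and the class II chain Cd74 12.6, 26.1 and 37.0.

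Plxnb2, the semaphorin receptor that gives the study its title (chr15:89155549-89180788, minus strand), was present in the sham libraries. It had counts of 2101, 1501 and 927, or 41.8, 51.8 and 32.5 RPKM (42.0 ± 9.64). It held 0.0297%, 0.0369% and 0.0232% of counts and ranked 883 of all rows by mean RPKM. It was the highest of 11 plexins and neuropilins, all of which reached 1 RPKM. Plxna4 followed with 14.1, 22.3 and 20.6 RPKM, and the coreceptors Nrp1 and Nrp2 had 9.61, 11.1 and 9.37, and 8.22, 8.13 and 9.93. The 3 values of Plxnb2 all lay above those of Plxna4, and those of Plxna4 above those of Nrp1, while Nrp1 and Nrp2 overlapped. The closest relatives of Plxnb2 were low. Plxnb3 stood at 6.10, 6.55 and 3.73 RPKM and Plxnb1 at 0.885, 2.07 and 2.29. Of 20 semaphorins, the ligands of plexins, 10 reached 1 RPKM. The class 4 members Sema4g (26.5, 44.1 and 24.8 RPKM) and Sema4d (24.6, 30.9 and 19.4) were the highest, and no member of class 3 reached a mean of 1 RPKM.

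Gene lists for nuclear and for cytoplasmic machinery overlapped in level, and ribosomal proteins had the lowest medians of those given here apart from histones. The 88 chromatin regulators held 1.88%, 1.84% and 1.94% of counts with a median of 14.1, 14.0 and 12.3 RPKM. Arid4a, of a histone deacetylase complex, stood at 123, 84.5 and 96.2 RPKM, Chd9, a chromatin remodeller, at 91.4, 77.7 and 116, and Kmt2e, of the lysine methyltransferase family, at 84.7, 68.1 and 120. Splicing genes held 1.49%, 1.12% and 0.810% of counts over 69 rows, with a median of 14.2, 13.6 and 7.70 RPKM, and were lowest in replicate 4 as a list. Translation factors, which act in the cytoplasm, had a median of 10.6, 12.9 and 8.42 RPKM over 65 rows, above that of splicing genes in replicate 4. Hnrnph1 had 218, 105 and 72.2 RPKM and Sf3b1, part of the U2 particle, 162, 106 and 63.5, while Srsf3, at 77.9, 85.2 and 86.7, did not share that order. Ribosomal protein genes, whose messengers are among the most abundant of a cell's cytoplasm, had a median of 8.18, 8.41 and 3.18 RPKM over 87 rows, and 26 of them reached 10 RPKM. Rpl4 was the highest with 43.2, 48.6 and 41.7 RPKM. The list as a whole therefore stood near the median of all detected protein-coding genes in replicates 2 and 3 and below it in replicate 4.

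The list of 18 housekeeping genes had a median between 12.5 and 26.1 RPKM, above that of ribosomal proteins in each library. Nuclear-encoded oxidative phosphorylation genes had a median of 9.57, 9.87 and 5.35 RPKM over 83 rows, and proteasome genes 12.2, 12.2 and 7.14 over 39. Gapdh, a glycolytic enzyme often used as a reference, was at 3.90, 5.53 and 5.74 RPKM, whereas Actb (beta-actin) was at 73.9, 106 and 72.1. Tmsb4x, a short actin-binding peptide gene, ranged from 286 to 116 and 41.5 RPKM. Of 70 histone rows, 34 had no count and 9 reached 1 RPKM. Messengers of replication-dependent histones lack a polyA tail, but the list was made by gene name and was not split by this trait. Of the 70 rows, Hist2h2be had the highest mean level with 10.3, 8.91 and 9.72 RPKM.

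Several noncoding RNAs beyond Malat1 differed in level between the libraries. Neat1, the scaffold of paraspeckles, had 47.6, 25.4 and 19.3 RPKM. Meg3, an imprinted lincRNA known from neurons, had 150, 70.9 and 29.1, Rn7sk, the small nuclear RNA that holds the elongation factor P-TEFb, 294, 136 and 33.2, and Gas5, a host of small nucleolar RNAs, 169, 85.2 and 36.6. All 4 were highest in replicate 2 and lowest in replicate 4. Gm26917, a row typed as lincRNA (chr17:39843013-39846341, plus strand), went another way with 62.5, 480 and 85.8 RPKM. Which RNA its reads come from was not tested. Kcnq1ot1, an imprinted antisense RNA, was steady at 11.6, 10.9 and 12.6 RPKM.

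Many unnamed noncoding rows lay inside protein-coding genes. Of 63 noncoding rows with a mean of at least 100 RPKM and at least 20 counts in each library, 44 lay within a protein-coding gene, 23 on its strand and 21 on the other, and 39 lay in an intron. The highest was Gm24270, a 57-base row annotated as miRNA in an intron of Peak1, with 1008, 1435 and 789 RPKM against 19.7, 24.6 and 33.4 for its host. The row had only 406, 333 and 180 counts, and its high RPKM rests on division by so short a length. Gm15503, in an intron of Rgs10, had 219, 275 and 604 RPKM while the host had 141, 81.6 and 40.4, so that row and host went in opposite orders. Gm24273, in an intron of Srgap2, had 354, 351 and 318 RPKM and followed its host (176, 168 and 149). Reads of such a row and of unspliced RNA of its host cannot be told apart.

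Whether a row inside a gene was detected followed the level of that gene. Over 26095 noncoding rows, 11.1% of the 17964 outside protein-coding genes reached 1 RPKM, against 44.2% of the 8131 inside. Among rows in introns on the host's strand it was 10.4% where the host was below 1 RPKM, 48.9% from 1 to 10 RPKM, 83.4% from 10 to 50 and 87.3% above. On the opposite strand the shares were 9.35%, 46.1%, 80.5% and 80.4%. Rows on the opposite strand were thus detected almost as often at each host level. Row and host RPKM had a Spearman correlation of 0.645 over 3626 same-strand rows and 0.632 over 2922 opposite-strand rows. These are across rows of the same libraries, several of which can share a host. TEC rows in introns on the host's strand held 2.41 ± 0.451% of all counts, most of the 3.43% of that type.

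**Figure D3:**
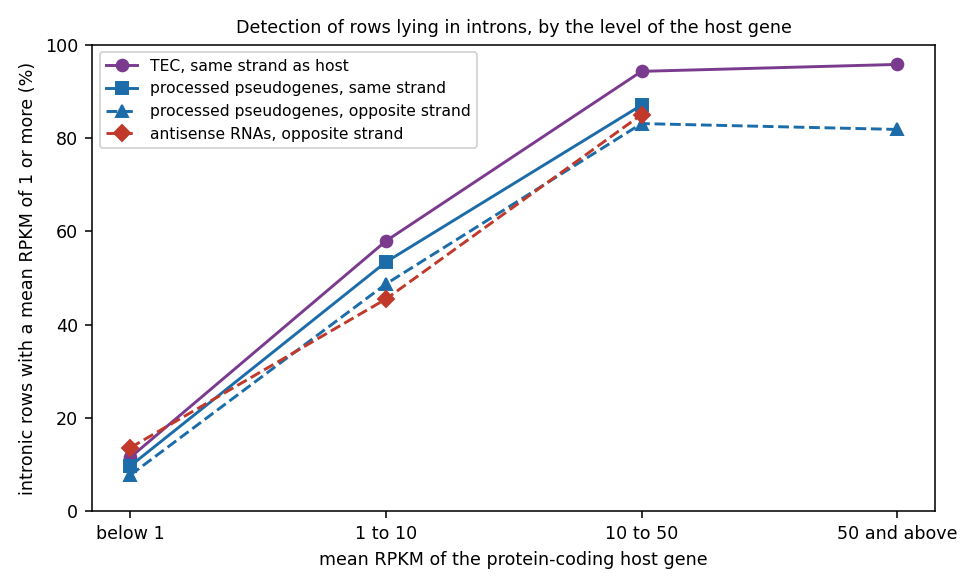
Percentage of intronic noncoding rows with a mean of at least 1 RPKM (vertical axis), by the mean RPKM of the protein-coding host gene (horizontal axis, 4 classes), for 3 row types. Solid lines are rows on the host's strand and dashed lines rows on the other strand, and a class with fewer than 20 rows is not drawn. All 4 lines rise together from below 20% to above 80%.

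Markers of other cells were present in every library. The 179 rows of 13 marker lists held 0.773%, 1.09% and 1.59% of counts (1.15 ± 0.414%), and 109 of them reached 1 RPKM. Of the 13 lists, all were lowest in replicate 2 and 11 were highest in replicate 4. Astrocyte markers held 0.115%, 0.243% and 0.564% of counts, the largest sum of the 13 in replicate 4. Their mean of 0.307% became 0.179% without replicate 4. The microglial secreted and lysosomal list held 0.508% there, but such sums grow with gene length. Per length the order was the reverse, with replicate 4 medians of 18.3 RPKM for astrocyte markers and 50.6 for that microglial list. The glutamate transporter Slc1a3 had 16.6, 81.7 and 250 RPKM and the water channel Aqp4 13.6, 31.1 and 179, but Glul, which makes glutamine, 76.6, 108 and 63.7. All but Aldh1l1 of 18 reached 1 RPKM.

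Neuronal markers held 0.300%, 0.305% and 0.364% of counts. Snap25, a protein of vesicle release, had 92.0, 150 and 270 RPKM and the synaptic vesicle protein Syn1 12.5, 18.7 and 81.8, while the neurofilament gene Nefl stayed at 82.2, 90.4 and 88.8. Rbfox3 (NeuN) stood at 2.68, 3.76 and 2.92 RPKM. The markers thus did not move as 1 group. Oligodendrocyte markers held 0.0963%, 0.207% and 0.184%, and 15 of 16 reached 1 RPKM. Oligodendrocyte precursor markers held 0.0170%, 0.0243% and 0.0477%, endothelial markers 0.00712%, 0.0102% and 0.0350%, and mural and fibroblast markers 0.00675%, 0.00939% and 0.0524%. The last 2 means, 0.0175% and 0.0228%, became 0.00867% and 0.00807% without replicate 4. Cdh5, which joins endothelial cells, had 0.101, 0.409 and 3.80 RPKM, and the pericyte gene Rgs5 3.99, 3.57 and 63.5. Schwann cell markers held 0.0154%, 0.0188% and 0.0406%, or 0.00227%, 0.00410% and 0.00437% without the myelin gene Pmp22, and ependymal markers 0.000283%, 0.000565% and 0.000899%, with no member at 1 RPKM. The part of these cells in the levels of any other gene was not tested.

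**Figure D4:**
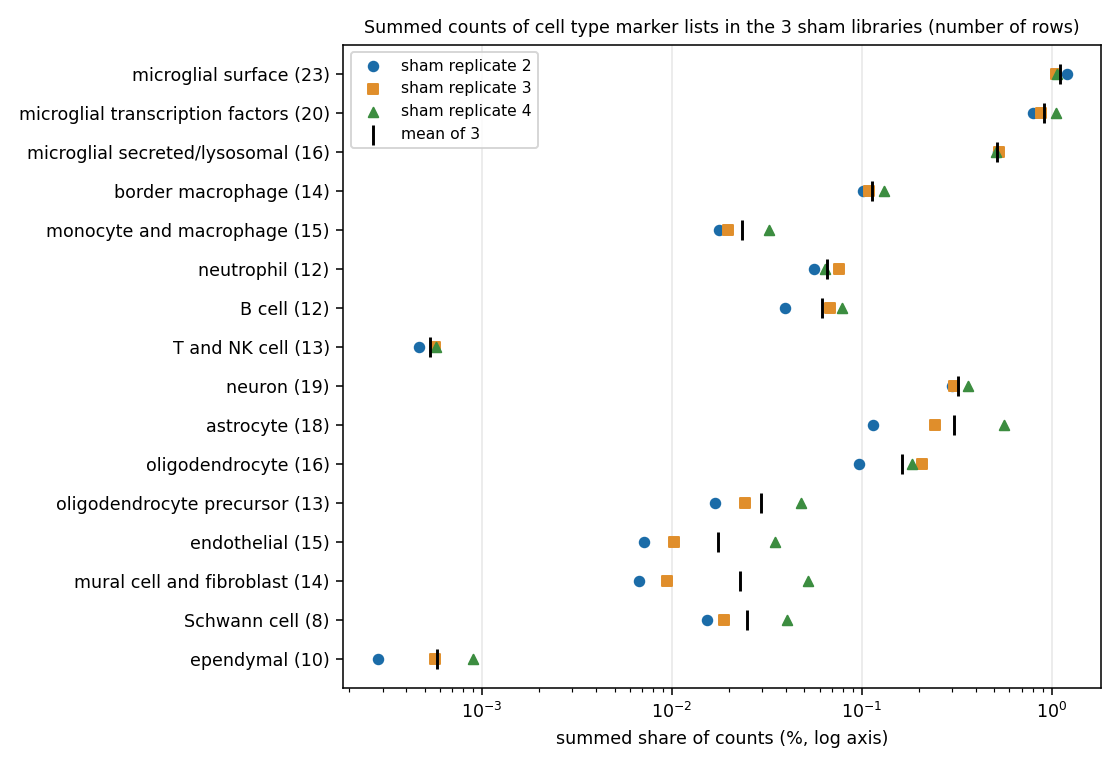
Summed share of counts (%, log axis) of the 3 microglial lists and of 13 marker lists of other cells in the sham libraries, with the number of rows in brackets and a bar at the mean. The microglial lists lie between 0.508% and 1.20% of counts, and replicate 4 stands apart for astrocyte, endothelial, mural and fibroblast markers.

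Among blood and border cells, the list for macrophages of the meninges and vessels held the largest share of counts. Their list held 0.101%, 0.110% and 0.130% of counts, or 0.0530%, 0.0555% and 0.0849% without the scavenger receptor gene Stab1, and 12 of 14 markers reached 1 RPKM. The mannose receptor Mrc1 had 32.5, 31.5 and 52.7 RPKM, the haemoglobin scavenger Cd163 19.8, 16.6 and 31.3, and Lyve1, a hyaluronan receptor, 16.4, 10.3 and 38.3. Folr2, a folate receptor, was at 0, 0.477 and 0.162. Monocyte markers held 0.0178%, 0.0199% and 0.0323%, with Lyz2 at 33.3, 39.0 and 33.7 RPKM, Ccr2 at 1.95, 1.42 and 1.26 and Ly6c2 at 0.0517, 0 and 0. Levels within each list were therefore uneven, with Folr2 below Ccr2 and Lyz2 above Cd163 in every library.

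The sums of the neutrophil and B cell lists also rested on 1 or a few genes. The neutrophil list held 0.0562%, 0.0757% and 0.0645%, which fell to 0.000609%, 0.000541% and 0.000624% without Csf3r, and Ly6g and Elane had no count. The B cell list held 0.0394%, 0.0678% and 0.0787%, led by the antibody heavy chain rows Ighm (114, 241 and 261 RPKM) and Ighd (22.1, 32.8 and 39.8) and by the adaptor Bank1 (16.3, 17.7 and 23.5). Of its 12 rows, 5 reached a mean of 1 RPKM, and the median was 0.467, 0.849 and 0.811 RPKM. Some defining B cell genes were at or near 0, with Pax5 at 0.0799, 0.0833 and 0.0846 RPKM, Ms4a1 at 0, 0 and 0.161 and Blk without a count. Markers of T and NK cells held 0.000467%, 0.000565% and 0.000575%, and none of 13 reached 1 RPKM.

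Over genes, the libraries were alike in broad order and differed in detail. On log2(RPKM + 1), the Pearson correlation over all 49585 rows was 0.947 between replicates 2 and 3, 0.912 between 2 and 4 and 0.931 between 3 and 4. Over the 17855 rows of at least 1 RPKM it was 0.861, 0.771 and 0.823. The values were thus lower without the rows near 0. Among 9628 genes of at least 5 RPKM, the median coefficient of variation between libraries was 28.7%, with quartiles of 17.1% and 43.9%, against a median of 6.97% from counting alone. In 3658 of them the highest library was at least 2 times the lowest and in 634 at least 5 times.

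The 8 steadiest genes were Fcf1, Huwe1, Lamp1, Papola, Dirc2, Smc5, Cdk2 and Slc46a3, each with a coefficient of variation below 1%, which is less than their counting error. Huwe1, a ubiquitin ligase, had counts of 10479, 6057 and 5962, or a mean of 63.3 ± 0.136 RPKM. Papola, the polyA polymerase, had a mean of 92.8 ± 0.346 RPKM. Of genes of at least 5 RPKM, 15 had counts in 1 library only, the highest variation possible, and 2 of these had at least 20 counts. Those, Gm28661 (162, 0 and 0 counts) and Gm10925 (0, 0 and 446 counts), lie on chromosome 1 in stretches whose 31-base words all occur in mitochondrial transcripts.

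Level differences between the libraries went with gene length and base composition. Among 7136 protein-coding genes of at least 5 RPKM, the median deviation of replicate 4 from the mean of the 3 libraries, on log2(RPKM + 1), was -0.34 below 1 kb, -0.33 from 1 to 2 kb, -0.19 from 2 to 4 kb, -0.08 from 4 to 8 kb and 0.01 at 8 kb or more. In replicate 2 the same medians ran from 0.18 to -0.06 and in replicate 3 from 0.18 to 0.02. For each gene the deviations of the 3 libraries cancel, so these are not separate trends. The median RPKM itself was 12.1, 11.6 and 7.40 below 1 kb and 13.1, 14.1 and 14.0 at 8 kb or more. Short genes were thus the ones by which replicate 4 stood lower. By GC content of the transcript, genes of 54% or more deviated by 0.30 in replicate 3 and -0.25 in replicate 4, and those under 42% by -0.07 and 0.07. Tyrobp and the lists of ribosomal proteins and oxidative phosphorylation were lower in replicate 4 too, and the part of gene length in this was not tested.

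**Figure D5:**
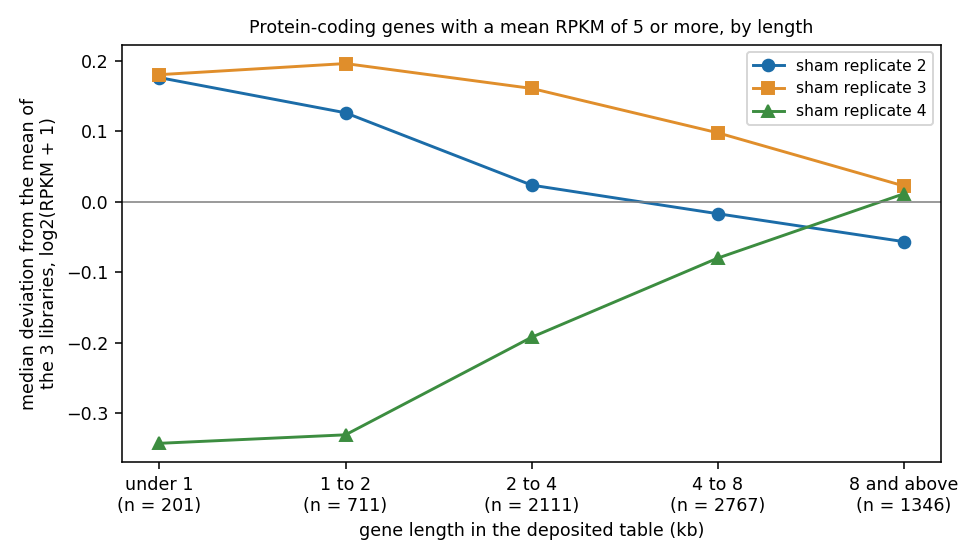
Median deviation of each sham library from the mean of the 3 libraries on log2(RPKM + 1) (vertical axis), by gene length in kb (horizontal axis, 5 classes with the number of genes), for protein-coding genes of at least 5 RPKM. Replicate 4 goes from -0.34 in the shortest class to 0.01 in the longest. Both other libraries stand at 0.18 in the shortest class, and at -0.06 (replicate 2) and 0.02 (replicate 3) in the longest. The deviations of a gene cancel over the 3 libraries, so the lines are not independent.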

How the data were processed

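RNA of GFP-positive nuclei from spinal cord was sequenced in 12 libraries, of which the 3 sham libraries are described. The authors deposited raw counts for each Ensembl gene and, in another table, RPKM. Their counter was featureCounts 1.4.6-p3 and their builds are named as GRCm38 and mm10, per the submitters' processing notes. The aligner, strand setting and treatment of multiply matching reads were not given in the sources used here. Per the labels' protocols the library kit was one for DNA, made from amplified cDNA. The authors' RPKM were each count over gene length and library total (relative difference of at most 1.18e-14 in the sham columns).

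Shares, RPKM means, SDs and exact (Clopper-Pearson) 95% binomial intervals were computed in Python 3.11.15 with pandas 2.3.3 and scipy 1.17.1. Intervals and the limit set by a count of 0 (3 counts) cover counting error only, since PCR copies are not independent molecules. With 1 group, no test was run. Total counts were 7064757, 4069787 and 4003480, so that 1 count on a gene of 2 kb is worth 0.0708, 0.123 and 0.125 RPKM. Symbols shared by more than 1 ID (186 IDs) were kept apart.

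Positions, overlaps, hosts and GC (of the longest transcript) come from GENCODE M21 on GRCm38, in which 99.5% of rows were found. Gene lengths agreed within 10% for 91.3% of 28693 rows with a sham count. Promoters come from RefSeq (GRCm38.p6), with 16205 protein-coding genes matched. The members and lists were chosen with earlier results of these data known. Named genes are the 20 with the largest mean share, the 20 protein-coding and 10 other rows with the highest RPKM among those with at least 20 counts in each library, the 3 leading rows of each type, up to 8 of the highest and 3 of the lowest members of each list, the 12 most (among ties) and 8 least variable genes of at least 5 RPKM, and Plxnb2. Some genes that this rule names are not reported here. Other list members, Y-linked genes and genes with a promoter match were chosen after their values were seen.

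Alternatives were other detection limits, thinning to the smallest total, TPM, totals scaled by TMM (edgeR 4.0.16) or median ratios, totals without the 10 leading genes, another pseudocount, marker lists without their leading member (added after the data were seen), and each library left out. The code was tested on simulated data. Figures were drawn with matplotlib 3.10.9.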

Additional observations from a re-analysis of the deposited data

How the results depend on the processing

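No paired analysis was possible because a single group is described. The limits of these data are 3 libraries, an unknown strand and read-assignment setting, and a spread between libraries that goes with length, base composition and markers of other cells. Of 120 alternative values over 23 results, 102 stayed within 1 SD of the main value (or within 1.5 times for a count of genes). For shares and levels, a mean of 3 libraries cannot move by 1 SD when 1 library is left out. Those values are among the 102 and say nothing about stability. The number of detected genes was 28802 with a single count in any library, against 17855 at a mean of 1 RPKM. Totals without the 10 genes with the most counts gave a protein-coding share of 90.8%, a long noncoding share of 4.08%, a share of 13.1% in the 100 leading genes and 2.41% for the homeostatic microglial genes. In TPM, which is another scale, the median was 259 for homeostatic genes and 29.3 for ribosomal protein genes, and Plxnb2 was 186. TMM or median-ratio totals moved these 3 values by less than 1 SD. Markers of other cells without the leading member of each list came to 0.668% of counts. The mean correlation between libraries was 0.930 over all rows, 0.819 over genes of at least 1 RPKM, and 0.912 to 0.947 with 1 library left out. With 1 library left out, the ribosomal protein median was 5.68 to 8.30 RPKM, the homeostatic median 56.1 to 61.9, Plxnb2 37.1 to 46.8 and the marker sum of other cells 0.933% to 1.34%. The cause of these moves was not tested.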

Other observations

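The Y chromosome held 1570 rows, of which 11 reached 1 RPKM, and Erdr1, counted from the region it shares with X, was the leading one. The X chromosome held 4.59%, 3.28% and 3.95% of counts, and chromosome 19, which carries Malat1, 5.74%, 4.97% and 4.95%.

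Although the 37 mitochondrial rows held no count, 11 rows of nuclear chromosomes of which at least 20% of 31-base words occur in mitochondrial transcripts held 236, 5 and 474 counts. Gm28439, on chromosome 1, had 56, 0 and 2 of them.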
